A study of Homo sapiens with 24 samples.

Results

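The transcriptomes of cells carrying either of the fusion proteins TAZ-CAMTA1 and YAP-TFE3 were set against those of cells carrying either of the hyperactive full-length proteins TAZ4SA and YAP5SA. The comparison took 12 of the 24 libraries of the series, which holds 8 groups of 3: 3 libraries each of TAZ-CAMTA1, YAP-TFE3, TAZ4SA and YAP5SA. All 8 groups were made in SW872, an established human liposarcoma cell line, by stable retroviral transduction and drug selection into pools of cells, done separately in triplicate. Per the labels, the 4 groups compared and the empty vector control were grown for 48 h after confluence. The methods text of the study gives sub-confluent collection for lines containing CAMTA1 and can be read to include TAZ-CAMTA1, so the density of that group rests on the label. No group lacked the endogenous WWTR1 or YAP1 gene, so each construct acted on top of the cells' own TAZ and YAP. The study asked whether the fusions recapitulate the programs of the proteins they derive from. The contrast was the mean of both fusion group means minus the mean of both full-length group means, on the log2 scale. It was tested in 20103 of the 60279 genes in each count table, those averaging 5 or more counts across the 12 libraries.

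TAZ, encoded by WWTR1, and YAP are transcriptional coactivators without a DNA-binding domain of their own, and they reach their target genes mainly by binding TEAD transcription factors. The Hippo pathway kinases LATS1 and LATS2 phosphorylate them on several serines, which keeps them in the cytoplasm and marks them for degradation. TAZ4SA and YAP5SA carry alanines in place of those serines and so escape this control. TAZ-CAMTA1 and YAP-TFE3 are the fusions of epithelioid hemangioendothelioma, a vascular sarcoma, and join an N-terminal piece of TAZ or YAP with the TEAD-binding domain to a C-terminal piece of CAMTA1, a calmodulin-binding transcription activator, or of TFE3, a basic helix-loop-helix factor of the MiT/TFE family that drives lysosomal genes.

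The genes behind the constructs were read first. Values below are CPM, counts per gene relative to library totals scaled by the trimmed mean of M-values (TMM), and are given for each library or as a group mean ± SD (n = 3 in every group). CAMTA1 stood at 143 ± 6.996 CPM in TAZ-CAMTA1, against 21.2 ± 2.05 in the empty vector. TFE3 stood at 281 ± 50.5 CPM in YAP-TFE3 and at 118 ± 9.96 in the empty vector. YAP1 was at 254 ± 2.33 CPM in YAP5SA, at 152 ± 17.9 in YAP-TFE3 and at 127 ± 12.4 in the empty vector. These 3 groups thus held more counts of their construct gene than the control. WWTR1 went the other way: it was at 135 ± 1.11 CPM in the TAZ4SA-labelled libraries, below the 203 ± 20.2 of the empty vector (log2 difference -0.58 ± 0.08 (SE), edgeR adjusted p = 1.62e-06), and at 179 ± 2.32 in TAZ-CAMTA1 and 69.1 ± 1.89 in YAP5SA. A gain over the empty vector from transduced TAZ was thus not seen, nor was it in TAZ-CAMTA1 (-0.18, not called). WWTR1 was also below the empty vector in the groups without a TAZ construct (-0.70 in YAP-TFE3 and -1.55 in YAP5SA). The TAZ4SA-labelled libraries lay 0.97 above YAP5SA. The study shows a western blot for Flag-tagged TAZ4SA in SW872 cells. The cause of the WWTR1 level was not tested, and the gene overlaps annotated neighbours on both strands. These are called the libraries labelled TAZ4SA because WWTR1 was not above the empty vector in them. Every direction below that uses them rests on that label, and counts for the fusions against YAP5SA alone are given beside the pooled ones.

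The 12 libraries held 23184246 to 35287476 counts. YAP-TFE3 replicate 3 stood apart from its group, with a chi-square per degree of freedom of 53.1 to 67.3 against the other YAP-TFE3 libraries, where those other libraries gave 10.5 between them, and results that hang on it are named where they arise. The mesenchymal markers VIM, COL1A1, COL1A2, PDGFRB and THY1 summed to 1192 to 1498 CPM in TAZ-CAMTA1 and 1021 to 1128 in YAP-TFE3. They summed to 1142 to 1535 in the TAZ4SA-labelled libraries and 1024 to 1611 in YAP5SA, which overlaps YAP-TFE3. ADIPOQ, the defining adipocyte marker, was under the count filter, and the other 5 adipocytic markers summed to 172 to 234 CPM in TAZ-CAMTA1, 298 to 374 in YAP-TFE3, 64.5 to 74.8 in the TAZ4SA-labelled libraries and 119 to 133 in YAP5SA. The endothelial markers summed to 113 to 144, 67.2 to 75.6, 36.7 to 57.4 and 22.7 to 32.9 CPM in the same order, the epithelial markers (4 of 5 tested) reached at most 14.7, in YAP-TFE3, and the haematopoietic markers (3 of 5 tested) at most 2.60. In bulk RNA of a cell pool, fewer cells with a transcript and less of it per cell cannot be told apart.

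The fusions and the full-length forms differed widely. Of the 20103 genes tested, 12459 (62.0%) passed an adjusted p of 0.05 in edgeR's quasi-likelihood test, 6233 (31.0%) higher and 6226 (31.0%) lower in the fusions. Among them, 1718 were higher and 1586 lower by at least 2-fold, 421 and 517 by at least 4-fold, and 144 and 239 by at least 8-fold. The balance of directions depended on the scaling: with total counts in place of TMM the median gene moved from 0.02 to 0.19 on the log2 scale, and 65.32% of the calls were higher in place of 50.03%. The same change took the share of higher calls from 47.43% to 66.09% in TAZ-CAMTA1 against the libraries labelled TAZ4SA, and from 51.89% to 61.81% in YAP-TFE3 against YAP5SA, so directions below are relative to TMM. Against YAP5SA alone, the mean of both fusions gave 10444 calls, of which 5123 were higher.

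Each fusion was next set against its own full-length form. In the TAZ pair, TAZ-CAMTA1 against the libraries labelled TAZ4SA, 10843 genes (53.9%) were called, 5143 (25.6%) higher and 5700 (28.4%) lower in the fusion. In the YAP pair, YAP-TFE3 against YAP5SA, 10644 (52.9%) were called, 5523 (27.5%) higher and 5121 (25.5%) lower. The pairs share no library, and 2880 genes (14.3%) were called higher in both and 3239 (16.1%) lower in both. Of the genes higher in the TAZ pair 56.0% were also higher in the YAP pair, and 52.15% the other way round. For lower genes these shares were 56.82% and 63.25%. Of the 6989 genes called in both pairs, 6119 (87.55%) went the same way and 870, or 4.33% of the genes tested, went opposite ways. Across all genes tested, which are not independent replicates, the log2 differences of the pairs had a Pearson r of 0.53. The size of the difference itself differed between the pairs in 6023 genes (30.0%), 622 of them among those higher in both pairs and 748 among those lower in both. The full-length forms differed from each other in 1464 genes (7.28%) and the fusions from each other in 8684 (43.2%). The plot of each gene's log2 difference in the TAZ pair against that in the YAP pair shows these classes.

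**Figure D1:**
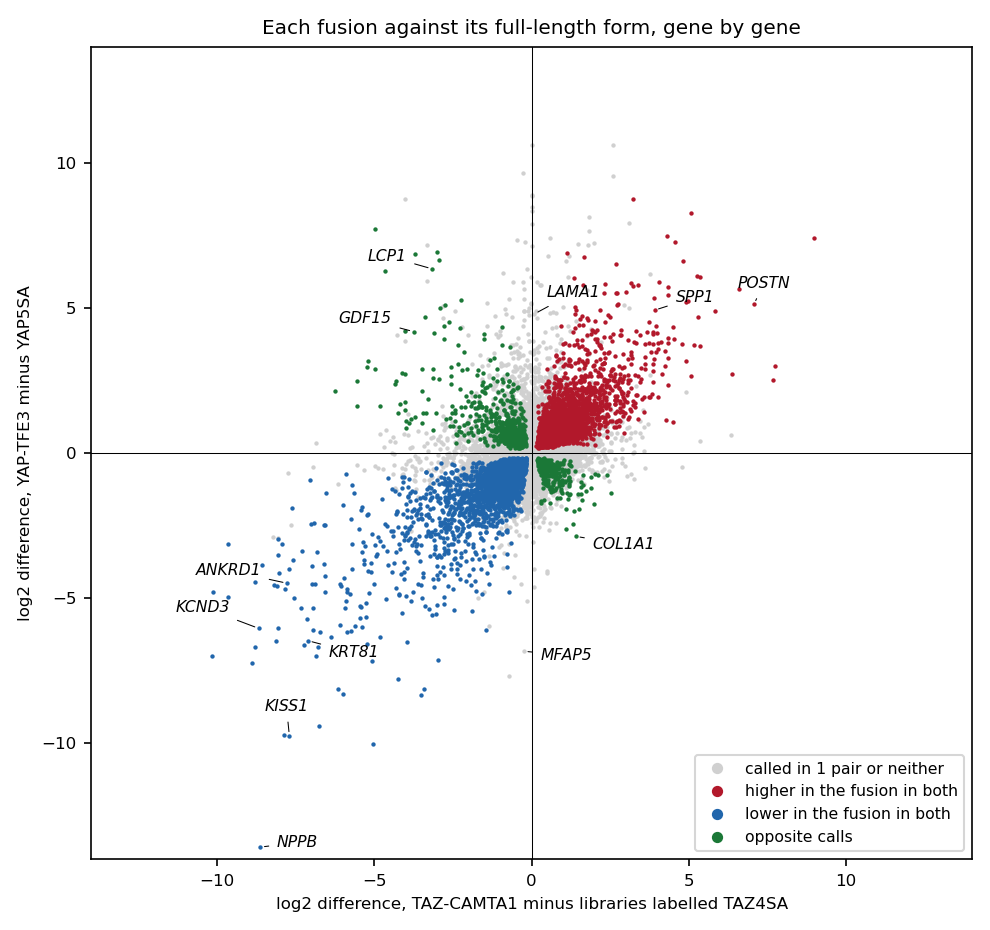
Log2 difference of TAZ-CAMTA1 minus the libraries labelled TAZ4SA (horizontal axis) against that of YAP-TFE3 minus YAP5SA (vertical axis). Each point is a tested gene that has a symbol, coloured by the calls in the pairs. Genes called the same way fill the upper right and lower left of the plot, and those called opposite ways lie in the other corners. The counts of 6119 and 870 for these classes are over all 20103 genes tested, with or without a symbol.

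Relative to the empty vector, which every comparison of this kind shares, TAZ-CAMTA1 differed in 983 genes (4.89%), YAP-TFE3 in 9774 (48.6%), the libraries labelled TAZ4SA in 9886 (49.2%) and YAP5SA in 8944 (44.5%). For some genes below, values against the empty vector are given beside the pair values. A gene can be higher in the fusions than in the full-length forms while it sits near or below the control in the fusions. Where no such value is given, higher and lower refer to the full-length forms only.

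Among genes lower in both pairs, 871 were at least 2-fold lower in each, and in 2545 of the 3239 no fusion library reached any full-length library. Over all genes tested, the 6 fusion libraries were all below the 6 full-length libraries in 2772 (13.8%). The genes named here are the 10 with the largest smaller-of-the-pairs difference among protein-coding genes averaging 100 or more counts whose libraries do not overlap, so their size and separation come from that rule. They are NPPB, KISS1, INHBB, PSG5, KRT81, TNNI1, MYOD1, HSD17B2, KCND3 and PDGFB. NPPB (chr1:11857464-11858945, GRCh38), which encodes the B-type natriuretic peptide, stood at 176, 196 and 151 CPM in the TAZ4SA-labelled libraries and at 351, 397 and 172 in YAP5SA, at 0.413, 0.442 and 0.457 in TAZ-CAMTA1 and at 0.0329, 0.0309 and 0 in YAP-TFE3. The 3 YAP-TFE3 libraries held 2 counts together, and the ratio in the YAP pair was 1.46e+04 with a 95% counting interval of 4041 to 1.205e+05. KISS1, the kisspeptin precursor, had 1 count over the YAP-TFE3 libraries, with averages of 33.7 CPM in the TAZ4SA-labelled libraries and 12.7 CPM in YAP5SA. Its ratio in the YAP pair was 1220, with an interval of 218 to 4.825e+04, and both intervals cover counting error only. Both transcripts were thus abundant in each full-length group and near nothing in either fusion, as they were in the empty vector (0.0962 and 0.0927 CPM).

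Secreted factors and a growth factor follow the same form. INHBB, an activin subunit, was at 7.49 to 10.04 CPM in the TAZ4SA-labelled libraries and 8.499 to 10.3 in YAP5SA, against 0 to 0.142 over the 6 fusion libraries (pooled log2 difference -6.93 ± 0.29 (SE), edgeR adjusted p = 1.71e-15). PDGFB, the platelet-derived growth factor B chain, was at 41.2, 40.95 and 33.8 CPM in the TAZ4SA-labelled libraries and 20.3, 23.3 and 18.1 in YAP5SA, and at 0.2303 to 0.748 in the fusions (-6.09 and -5.91 in the pairs). PSG5, a pregnancy-specific glycoprotein, was at 53.9 ± 18.1 and 53.2 ± 22.5 CPM in the full-length groups and at 0.357 ± 0.196 and 0.5405 ± 0.1504 in the fusions, and KRT81, a hair keratin, was at 326 ± 65.02 and 469 ± 84.5 against 2.38 ± 0.641 and 5.32 ± 1.89. PSG5 and KRT81 have near-identical paralogs, so their counts may include reads of related genes. All 4 transcripts separated the groups without overlap. In the fusions only KRT81 in YAP-TFE3 was called against the empty vector among these 4 (log2 1.62, edgeR adjusted p = 0.00043).

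Muscle and metabolic genes made up the rest. TNNI1, slow skeletal troponin I, was at 10.1, 15.3 and 4.03 CPM in the TAZ4SA-labelled libraries and at 14.5, 13.1 and 1.32 in YAP5SA, where replicate 3 stands well below the others, and the fusion libraries were at 0.0852 to 0.165. Replicate 3 was the lowest library of both full-length groups in TNNI1, MYOD1, PSG5 and CA9. The same held for NPPB, KISS1, KRT81, HSD17B2 and PDGFB, so of the lower genes named by the rule only INHBB and KCND3 differed. MYOD1, the myogenic transcription factor, was at 12.4 to 30.3 and 3.07 to 20.2 CPM against 0.0751 to 0.335 (pooled -6.44). HSD17B2, a steroid dehydrogenase, averaged 20.1 and 6.59 CPM in the full-length groups. It was called below the empty vector in both fusions (-2.00 in TAZ-CAMTA1, edgeR adjusted p = 0.0476, and -2.75 in YAP-TFE3), but on few counts. The empty vector libraries held 23, 24 and 3 counts, those of TAZ-CAMTA1 4, 7 and 3, and those of YAP-TFE3 4, 3 and 2. KCND3, a voltage-gated potassium channel, averaged 47.7 ± 9.53 CPM in the TAZ4SA-labelled libraries, 6.15 to 8.46 over the YAP5SA libraries, 0.109 in TAZ-CAMTA1 and 0.101 in YAP-TFE3. The difference between the pairs for KCND3 (-2.63 ± 0.86 (SE), edgeR adjusted p = 0.0233) lost its call without TAZ-CAMTA1 replicate 1 (-2.28), YAP-TFE3 replicate 1 (-2.44) or YAP-TFE3 replicate 3 (-1.99). KCND3 overlaps annotated genes on both strands, and PSG5, KRT81, TNNI1, HSD17B2 and PDGFB overlap a gene on the other strand. The strand setting of the counting is not given in the sources used here, so these counts may hold reads of the neighbours.

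Among genes higher in both pairs, 761 were at least 2-fold higher in each, and in 2114 of the 2880 every fusion library was above every full-length library, a separation seen in 2303 (11.5%) of all genes tested. The 10 named by the same rule are POSTN, SELENOP, AKR1B10, CYP4X1, TRPA1, SPP1, ERG, RGS5, CMKLR1 and RANBP3L. POSTN (chr13:37562583-37598844), the matricellular protein periostin, was at 54.1, 48.3 and 58.3 CPM in TAZ-CAMTA1 and 77.6, 49.9 and 49.7 in YAP-TFE3, at 0.285, 0.517 and 0.387 in the TAZ4SA-labelled libraries and at 1.53, 1.44 and 2.04 in YAP5SA. Its pooled log2 difference was 6.10 ± 0.25 (SE) (edgeR adjusted p = 1.04e-15), larger in the TAZ pair (7.07) than in the YAP pair (5.13). SPP1, the secreted phosphoprotein osteopontin, was at 158, 148 and 118 CPM in TAZ-CAMTA1 and 401, 322 and 348 in YAP-TFE3, and at 7.25 to 14.04 over the 6 full-length libraries. Both matrix proteins lay above the empty vector in each fusion and below it in each full-length group: POSTN differed from it by 1.48, 1.62, -5.59 and -3.51 on the log2 scale in TAZ-CAMTA1, YAP-TFE3, the TAZ4SA-labelled libraries and YAP5SA, and SPP1 by 1.27, 2.60, -2.64 and -2.32.

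AKR1B10, an aldo-keto reductase, and RGS5, a regulator of G-protein signalling known from pericytes, behaved alike. AKR1B10 averaged 6.37 ± 2.57 and 8.76 ± 5.81 CPM in the fusions, 0.313 ± 0.117 and 0.194 ± 0.00453 in the full-length groups and 1.23 ± 0.246 in the empty vector. RGS5 was at 69.6, 62.8 and 58.1 CPM in TAZ-CAMTA1, 144, 98.99 and 115 in YAP-TFE3, 5.33, 4.61 and 3.25 in the TAZ4SA-labelled libraries and 7.84, 8.17 and 4.87 in YAP5SA, against 35.4 ± 5.83 in the empty vector. In the other 6 genes the fusions sat close to the control and the full-length forms far below it. SELENOP, the selenium transport protein, stood at 8.31 ± 1.98 and 10.6 ± 3.69 CPM in the fusions, 8.91 ± 3.095 in the empty vector, and 0.2698 ± 0.175 and 0.2904 ± 0.125 in the full-length groups. ERG, an ETS transcription factor of endothelial cells, was at 9.13, 8.06 and 7.34 CPM in TAZ-CAMTA1 and 7.503, 8.01 and 7.58 in YAP-TFE3, at 0.3099 to 0.854 in the full-length libraries and at 5.98 ± 0.639 in the empty vector. The cytochrome P450 gene CYP4X1, the ion channel gene TRPA1, the chemerin receptor gene CMKLR1 and RANBP3L had pooled log2 differences of 4.06, 4.15, 4.07 and 4.26. Of these 6 genes in 2 fusions, only CMKLR1 in YAP-TFE3 was called against the empty vector (-0.66, edgeR adjusted p = 0.0314). ERG and RGS5 overlap annotated genes on both strands, and SELENOP, TRPA1 and SPP1 a gene on the other strand. The plot by library shows POSTN, SPP1, RGS5, CMKLR1, NPPB, KRT81 and PDGFB of these, with COL15A1, ANKRD1 and TAGLN, which are described below.

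**Figure D2:**
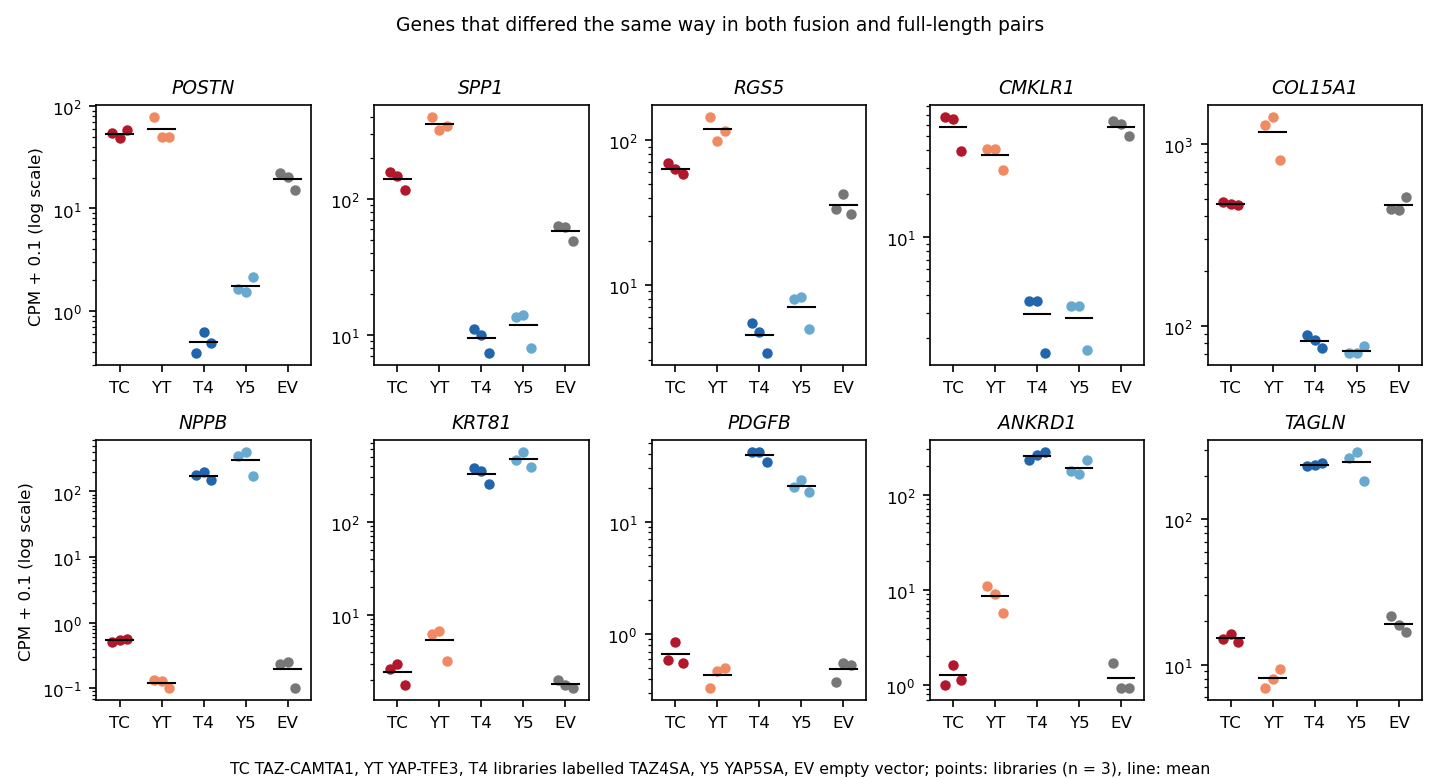
CPM plus 0.1 on a log axis in each of the 3 libraries (points) of the empty vector, TAZ-CAMTA1, YAP-TFE3, TAZ4SA and YAP5SA, with the group mean as a bar. POSTN, SPP1, RGS5, CMKLR1 and COL15A1 were higher in both pairs, and NPPB, KRT81, PDGFB, ANKRD1 and TAGLN lower in both. In the lower genes the full-length groups lie far above the empty vector and the fusions near or below it. The exceptions are KRT81 and ANKRD1 in YAP-TFE3, which were above it by 1.62 and 2.93 on the log2 scale. In the higher genes the full-length groups lie below both the empty vector and the fusions.

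Promoter windows of RefSeq (GRCh38.p14, 250 bases before to 50 after each start) were searched on both strands for the TEAD word GGAATG, the AP-1 word TGANTCA, the E-box CACGTG and its longer form TCACGTGA, which contains the E-box. Stretches of a few named genes are printed 5′ to 3′ on the gene's strand, with the word in capitals. They were picked because the window held a word, and other named genes held none or, like NPPB, had no matched window. CATTCC is GGAATG read on the other strand. The first 4 are genes lower in both pairs, ERG and RGS5 were higher in both, PLAUR and IL11 lower, and POSTN higher.
ANKRD1 (chr10:90921180-90921245, minus strand): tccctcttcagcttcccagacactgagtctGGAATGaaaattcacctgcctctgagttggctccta
CCN2 (chr6:131951432-131951497, minus strand): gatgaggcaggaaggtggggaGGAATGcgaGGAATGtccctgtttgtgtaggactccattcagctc
THBS1 (chr15:39581003-39581068, plus strand): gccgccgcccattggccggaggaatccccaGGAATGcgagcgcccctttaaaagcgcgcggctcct
DKK1 (chr10:52314201-52314266, plus strand): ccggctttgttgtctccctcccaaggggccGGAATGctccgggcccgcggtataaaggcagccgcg
ERG (chr21:38660764-38660829, minus strand): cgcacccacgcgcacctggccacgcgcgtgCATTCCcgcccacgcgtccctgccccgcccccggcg
RGS5 (chr1:163321905-163321970, minus strand): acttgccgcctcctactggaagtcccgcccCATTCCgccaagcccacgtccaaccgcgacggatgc
PLAUR (chr19:43670319-43670385, minus strand): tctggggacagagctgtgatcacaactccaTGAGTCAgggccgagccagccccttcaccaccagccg
IL11 (chr19:55370523-55370589, minus strand): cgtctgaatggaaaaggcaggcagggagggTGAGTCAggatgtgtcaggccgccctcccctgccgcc
POSTN (chr13:37598952-37599018, minus strand): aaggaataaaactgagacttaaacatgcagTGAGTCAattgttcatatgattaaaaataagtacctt

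All 9 stretches lie upstream of the annotated start, CCN2 holds a pair of copies, and a matching word is a description and not a binding site. A promoter was matched for 13084 of the genes tested. GGAATG was in 14% of all 27305 promoters, in 11.3% of those of tested genes, in 12.1% of the 2140 matched for genes higher in both pairs and in 11% of the 2309 for genes lower in both. TGANTCA was in 7.76%, 5.04%, 5.42% and 5.15% in the same order, CACGTG in 7.43%, 9.75%, 9.39% and 10.4%, and TCACGTGA in 1.04%, 1.70%, 2.34% and 1.26%. Promoters of genes higher and lower in the fusions thus carried the TEAD and AP-1 words at much the same rate. Within lists, GGAATG was in 7 of the 16 matched promoters of the YAP and TAZ targets, and CACGTG in 9 of the 25 matched for lysosomal genes.

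Gene lists were then read by counts and medians, beside the 31.0% of all genes called in each direction and an all-gene median of 0.02. Established YAP and TAZ targets were mostly lower in the fusions, with 1 higher and 16 lower of 22 tested in the pooled contrast. Their median log2 difference was -0.89 (-1.01 in the TAZ pair and -0.96 in the YAP pair). In the TAZ pair 2 were higher and 18 lower, and in the YAP pair 4 higher and 13 lower. Lower in both pairs were 12, where 16.1% of all genes were, and 4 were called in opposite ways. Of the 22, 13 differed between the pairs, 11 with the larger value in the YAP pair and 2 in the TAZ pair. ANKRD1 (chr10:90912096-90921087), a cardiac ankyrin repeat protein and a standard readout of YAP activity, was at 228, 257 and 279 CPM in the TAZ4SA-labelled libraries, 177, 164 and 228 in YAP5SA, 10.9, 8.94 and 5.65 in YAP-TFE3 and 0.901, 1.53 and 1.04 in TAZ-CAMTA1. It was the target with the largest difference (pooled -6.13 ± 0.25 (SE), edgeR adjusted p = 8.47e-16), and TAZ-CAMTA1 was not called against the empty vector, at 1.07 ± 0.434 CPM. CCN1 and CCN2, secreted matricellular proteins, kept an intermediate place: CCN2 averaged 21.1 ± 5.08 CPM in the empty vector, 119 ± 5.33 in TAZ-CAMTA1, 185 ± 37.5 in YAP-TFE3, 495 ± 29.1 in YAP5SA and 599.7 ± 42.7 in the TAZ4SA-labelled libraries. AXL, a receptor tyrosine kinase, was at 94.5 to 152 CPM in the fusions and 733 to 909.7 in the full-length libraries, and AMOTL2, a Hippo scaffold, had a pooled difference of -1.50. The 1 target called higher in the pooled contrast was RBMS3 (0.40), an RNA-binding protein gene that overlaps several others. It was called in the TAZ pair (0.49) and not in the YAP pair (0.31). Against the empty vector the list's medians were 0.35 in TAZ-CAMTA1, 0.73 in YAP-TFE3, 1.43 in the TAZ4SA-labelled libraries and 1.42 in YAP5SA.

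Upstream of these targets, the Hippo kinases, scaffolds and TEAD partners had 8 higher and 11 lower of 26 tested, beside 31.0% of all genes each way. TEAD1, the DNA-binding partner, was higher in the fusions, at 389 ± 27.3 and 513 ± 91.1 CPM against 211 ± 28.9 and 238 ± 37.95 (pooled 0.99 ± 0.09 (SE)), as were the kinase gene STK38L (0.79) and its coactivator MOB1B (0.79). The scaffolds NF2 (-1.14) and WWC1 (-1.11) were lower. The AP-1 factors, which often act beside TEADs, had 2 higher and 6 lower of 11 tested, with medians of -0.89 in the TAZ pair and 0.30 in the YAP pair, and 8 of the 11 differed between the pairs, each with the larger value in the YAP pair. FOSL1 was at 155, 139.9 and 86.8 CPM in the TAZ4SA-labelled libraries, 88.6, 87.9 and 53.4 in YAP5SA, 32.4, 34.5 and 13.4 in YAP-TFE3 and 8.64, 9.42 and 6.92 in TAZ-CAMTA1, and JUN was lower by a like amount in both pairs (-2.17 and -2.14). ATF3 was lower in the TAZ pair (-2.80) and not called in the YAP pair (0.30), where leaving out YAP-TFE3 replicate 3 gave 0.65 and a call. FOS was called in the YAP pair (2.64, or 1.68 without YAP-TFE3 replicate 3) and not in the TAZ pair (0.44). Genes of serum response factor and the contractile apparatus had 4 higher and 18 lower of 22 tested (medians -0.84 and -0.64 in the pairs). In both pairs 14 were lower, where 16.1% of all genes were. TAGLN, the actin-binding protein transgelin, was at 231 to 245 and 184 to 289 CPM in the full-length groups and 14.2 to 16.2 and 6.78 to 9.31 in the fusions, and MYH9, non-muscle myosin heavy chain, had a pooled difference of -1.44. LMOD1, CALD1 and ACTA2 were among those higher (1.86, 0.76 and 0.58), LMOD1 chiefly in YAP-TFE3, where it averaged 31.8 ± 7.16 CPM against 2.92 ± 0.8399 in TAZ-CAMTA1. The natriuretic peptide genes, NPPB among them, had 2 higher and 1 lower of 6 tested.

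**Figure D3:**
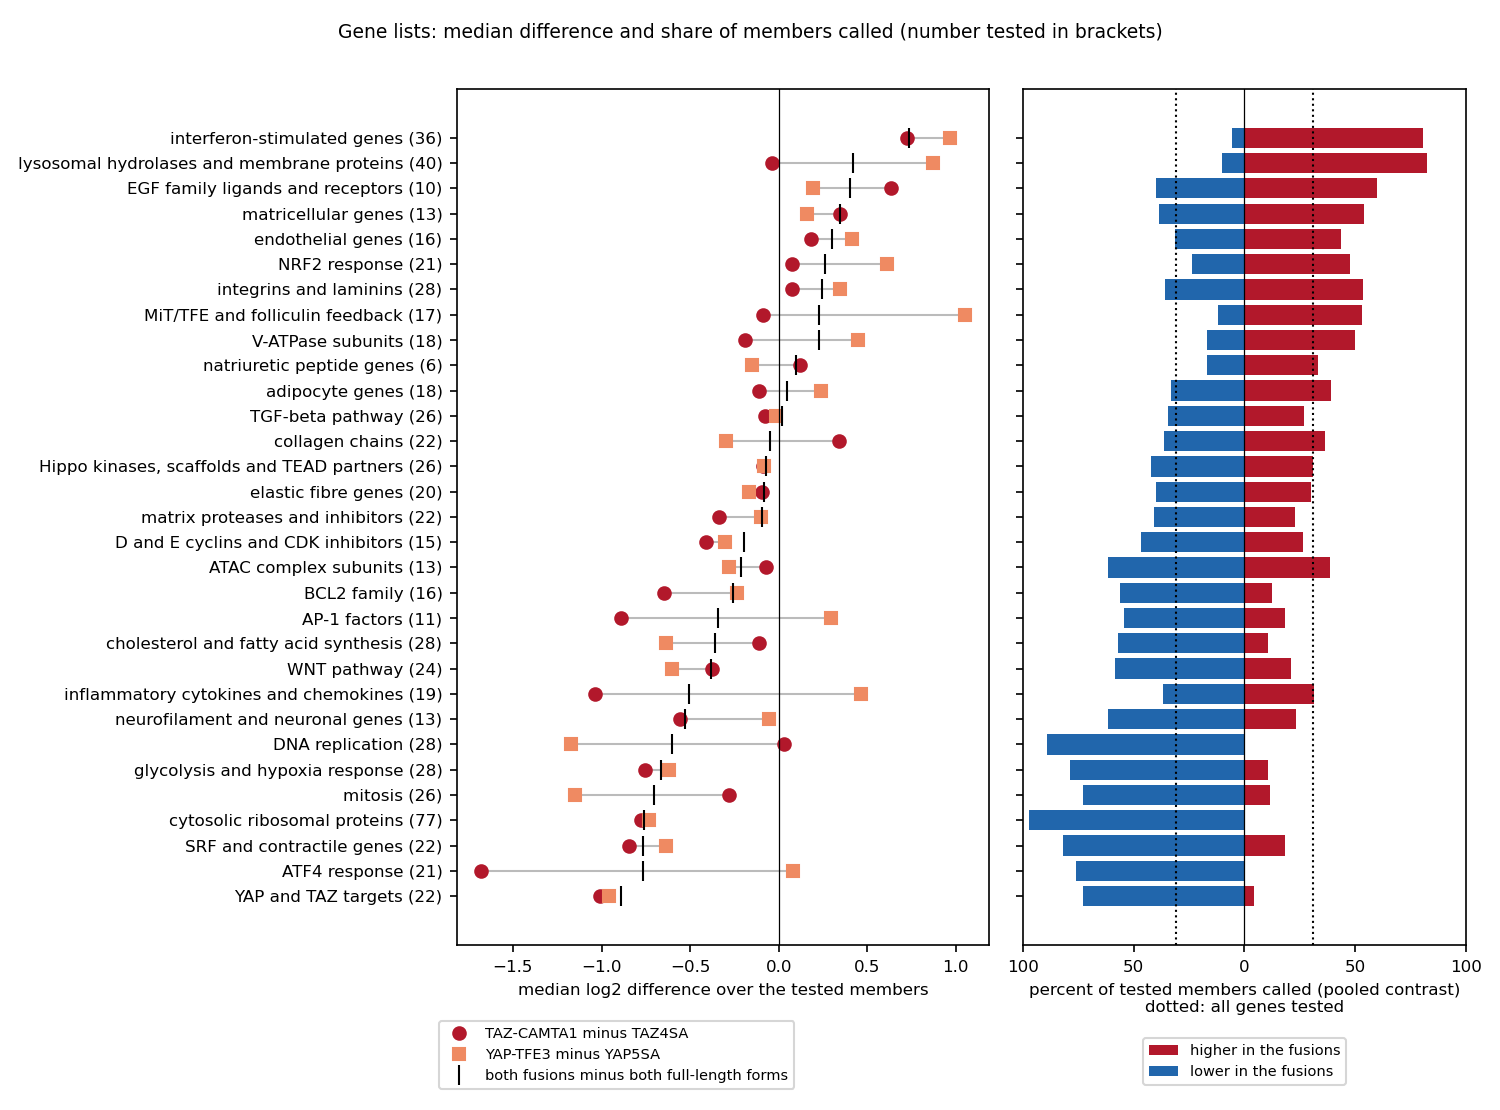
Median log2 difference of each gene list in the pooled contrast, the TAZ pair and the YAP pair (horizontal axis, 1 row a list). YAP and TAZ targets, SRF genes and ribosomal protein genes lie left of 0 in all 3, interferon-stimulated genes lie right of 0 in all 3, and the lysosomal, DNA replication and ATF4 lists spread between the pairs.

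Matrix genes moved in both directions, where 31.0% of all genes were called each way. The collagen chains had 8 higher and 8 lower of 22 tested. The list's median was 0.34 in the TAZ pair and -0.30 in the YAP pair, and 10 chains had the larger value in the TAZ pair and 2 in the YAP pair. COL15A1, a basement membrane collagen, was at 480.1, 468 and 463 CPM in TAZ-CAMTA1, 1283, 1408 and 814 in YAP-TFE3, 88.97, 83.6 and 75.5 in the TAZ4SA-labelled libraries and 70.2, 70.1 and 77.5 in YAP5SA, while the empty vector averaged 461 ± 43.7. COL8A1 and COL13A1 were lower (pooled -3.80 and -2.37) and COL4A5 higher (1.45). Elastic fibre genes had 6 higher and 8 lower of 20. FBLN5, which organises elastic fibres, was at 65.8, 68.96 and 100.3 CPM in YAP-TFE3 and 21.2, 20.2 and 23.3 in TAZ-CAMTA1, against 2.08 to 8.499 in the full-length libraries. LTBP1 was also higher (1.29), the lysyl oxidase gene LOXL4 lower (-1.69), and MFAP5 lower in the YAP pair (-6.84, or -8.56 without YAP-TFE3 replicate 2) without a call in the TAZ pair (-0.25). Matricellular genes had 7 higher and 5 lower of 13, with CCN3 higher (2.55) and THBS1 lower (-1.12). Integrins and laminins had 15 higher and 10 lower of 28: LAMA1 averaged 325 ± 35.2 CPM in YAP-TFE3 against 7.58 ± 0.624 in TAZ-CAMTA1 and 11.7 ± 0.877 in YAP5SA, ITGB3 was higher (2.38), and ITGB2 was lower (-2.92). Matrix proteases and their inhibitors had 5 higher and 9 lower of 22 tested, with PLAT, the tissue plasminogen activator, higher (1.67) and PLAUR, the urokinase receptor, lower (-2.70). Further down that list, MMP24 was lower (-2.37), and MMP1 was higher in the YAP pair (3.65, or 4.36 without YAP5SA replicate 2) without a call in the TAZ pair (-0.37).

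Lists of signalling ligands and receptors held members called in both directions, and the TGF-beta pathway did so at about the share of all genes. EGF family genes had 6 higher and 4 lower of 10 tested. The receptor gene ERBB3 was at 7.49 to 13.8 CPM in the full-length libraries and 1.02 to 1.74 in the fusions, HBEGF was lower (-1.76), and EREG higher (2.36). The TGF-beta pathway had 7 higher and 9 lower of 26 tested, where 62.0% of all genes were called: the ligand genes BMP4 (-3.52) and INHBA (-3.39) were lower, and TGFB3 (1.78) and the co-receptor gene TGFBR3 (1.61) higher. BMP4 stood at 180.2, 199 and 180.4 CPM in the TAZ4SA-labelled libraries, 324, 344 and 298 in YAP5SA, 22.5, 24.2 and 27.1 in TAZ-CAMTA1 and 14.5, 14.7 and 26.5 in YAP-TFE3, so the fusions lay near or below the 30.1 ± 3.28 of the empty vector. WNT pathway genes had 5 higher and 14 lower of 24 tested (medians -0.38 and -0.60 in the pairs). The ligand gene WNT7B (-5.57) and the secreted antagonist gene DKK1 (-3.30) were lower, and the co-receptor gene LRP6 higher (1.39). DKK1 was below the 14.98 ± 2.75 CPM of the empty vector in both fusions and above it in both full-length groups, at 3.36 to 5.75 over the fusion libraries and 28.4 to 46.2 over the full-length ones.

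Lysosomal genes differed between the pairs. Hydrolases and membrane proteins had 33 higher and 4 lower of 40 in the pooled contrast, but the medians were -0.04 in the TAZ pair (0.18 with total-count scaling) and 0.87 in the YAP pair, and 31 of the 40 had the larger difference in the YAP pair and 1 in the TAZ pair, where 30.0% of all genes differed in either direction. ASAH1, acid ceramidase, was at 237, 211 and 264 CPM in YAP-TFE3, 61.5, 70.1 and 74.6 in TAZ-CAMTA1 and 36.9 to 49.4 over the full-length libraries. SGSH was higher (1.02) and the sulfatase gene IDS lower (-0.58). The V-ATPase subunits, which acidify the lysosome, had 9 higher and 3 lower of 18, with medians of -0.19 in the TAZ pair (0.03 with total-count scaling) and 0.45 in the YAP pair, and ATP6V1C1 was the leading subunit (1.10). Genes of the MiT/TFE family and its folliculin feedback had 9 higher and 2 lower of 17 tested (medians -0.09, which total-count scaling turned to 0.13, and 1.05). GPNMB, a classic MiT/TFE target, was at 944, 989 and 1112 CPM in YAP-TFE3, 138, 121 and 133 in TAZ-CAMTA1 and 43.98 to 72.9 in the full-length libraries, and RRAGD, a Rag GTPase, averaged 108 ± 10.99 in YAP-TFE3 and 3.89 ± 0.564 in TAZ-CAMTA1. Against the empty vector the lysosomal medians were 0.81 in YAP-TFE3 and 0.03 in TAZ-CAMTA1.

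DNA replication genes were lower mainly in the YAP pair. Of 28 DNA replication genes none was called higher in the pooled contrast and 25 lower, while the medians were 0.03 in the TAZ pair and -1.17 in the YAP pair, and 25 differed between the pairs. RRM2, the ribonucleotide reductase subunit, was at 15.01, 15.9 and 50.6 CPM in YAP-TFE3, where replicate 3 stands apart, 112, 135 and 125 in TAZ-CAMTA1, 129, 123 and 106 in the TAZ4SA-labelled libraries and 179, 158 and 144 in YAP5SA. CDT1 (-1.20 and -2.12 in the pairs, the latter -2.73 without YAP-TFE3 replicate 3) and CDC45 (-0.58 and -1.83) load and fire replication origins and were lower in both. Without YAP-TFE3 replicate 3 the DNA replication medians were -0.81 pooled and -1.64 in the YAP pair. Mitosis genes had 3 higher and 19 lower of 26 (CDC20 -1.64, AURKB -1.59 and UBE2C -1.43 pooled). In both pairs 13 were lower, where 16.1% of all genes were. The kinesin gene CENPE was higher (0.71 pooled, 1.41 in the TAZ pair and not called in the YAP pair). Its pooled call was lost when any 1 of 6 libraries was left out (0.40 to 0.71). These were TAZ-CAMTA1 replicate 3, the libraries labelled TAZ4SA 1 and 2, YAP-TFE3 replicate 1, and YAP5SA replicates 1 and 2. D and E cyclins and CDK inhibitors had 4 higher and 7 lower of 15: CCND2 was lower (-3.69), at 4.41 and 2.75 CPM in the full-length groups and 0.113 and 0.632 in the fusions, CDKN1A was lower (-1.22) and CCNE2 higher in the TAZ pair (1.34) and not called in the YAP pair (0.32). The BCL2 family had 2 higher and 9 lower of 16, with BOK lower (-1.45) and the BH3-only gene HRK lower in the TAZ pair (-2.81, or -3.86 without TAZ-CAMTA1 replicate 3) and not called in the YAP pair (-0.47).

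Interferon-stimulated genes were mostly higher in the fusions than in the full-length forms. The list had 29 higher and 2 lower of 36 in the pooled contrast, and 16 were higher in both pairs, where 14.3% of all genes were. IFIT2 was at 29.3, 33.5 and 33.1 CPM in TAZ-CAMTA1, 98.2, 82.5 and 103 in YAP-TFE3 and 5.696 to 9.56 in the full-length libraries. OASL had a pooled difference of 2.95, IFI44L was called in the YAP pair (4.27, or 3.45 without YAP-TFE3 replicate 3) and not in the TAZ pair (1.90), where it was called without TAZ-CAMTA1 replicate 1 (2.12), TAZ4SA replicate 3 (4.22), or YAP-TFE3 replicate 1 or 3 (1.90 in each), and OAS3 was lower (-0.47). The list's medians against the empty vector were 0.03 in TAZ-CAMTA1, 0.48 in YAP-TFE3, -0.55 in the TAZ4SA-labelled libraries and -0.43 in YAP5SA. Inflammatory cytokines and chemokines had 6 higher and 7 lower of 19 tested, with medians of -1.04 and 0.46 in the TAZ and YAP pairs. CXCL12 was higher in both pairs (3.47 and 2.92), at 4.06 to 8.95 CPM in the fusions and 0.504 to 1.01 in the full-length libraries. CCL5 was higher in the pooled contrast (2.23), with the larger difference in the YAP pair. It was at 4.26 to 5.44 CPM in YAP-TFE3 against 0.1995 to 0.669 in YAP5SA. TAZ-CAMTA1 held 1.46 to 1.73 CPM of CCL5 against 0.426 to 1.02 in the TAZ4SA-labelled libraries. IL11 and IL18 were lower (-3.03 and -3.28 pooled). IL24 was lower in the TAZ pair (-4.37) and not called in the YAP pair (-0.42). IL33 had 16 counts over the TAZ-CAMTA1 libraries and none over those labelled TAZ4SA. Against a floor of 3 counts in each library, that makes it at least 1.49-fold higher in the TAZ pair. It had 329 counts in YAP-TFE3 against 3 in YAP5SA, a ratio of 74.8 with a 95% counting interval of 25.4 to 365.

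Metabolic and stress lists differed from each other in direction, beside 31.0% of all genes called each way in the pooled contrast. The glycolysis and hypoxia list had 3 higher and 22 lower of 28, and 17 were lower in both pairs, where 16.1% of all genes were. Its medians against the empty vector were -0.03 in TAZ-CAMTA1, 0.26 in YAP-TFE3, 0.71 in the TAZ4SA-labelled libraries and 0.74 in YAP5SA. CA9, carbonic anhydrase 9, was at 8.79, 14.1 and 4.57 CPM in the TAZ4SA-labelled libraries and at 14.7, 13.2 and 0.1596 in YAP5SA, where replicate 3 sits with the fusion libraries (0.0609 to 1.16). NDRG1 (-2.15) and ADM (-2.10) were lower without overlap, and the prolyl hydroxylase gene EGLN3 was higher (0.84), its call in the YAP pair lost without YAP-TFE3 replicate 3 (0.48) or YAP5SA replicate 3 (0.44). ATF4 target genes of the amino acid response had 0 higher and 16 lower of 21, with medians of -1.68 in the TAZ pair and 0.08 in the YAP pair. In the TAZ pair 20 were lower and none higher, and in the YAP pair 3 higher, 5 lower and 13 not called. Beside the empty vector their medians were -0.00 in TAZ-CAMTA1 and 1.81, 1.82 and 1.80 in YAP-TFE3, the TAZ4SA-labelled libraries and YAP5SA, and those of the last 3 thus lay close together. ASNS, asparagine synthetase, was at 130.2, 104 and 222 CPM in TAZ-CAMTA1, 716, 727 and 429.5 in YAP-TFE3, 817, 818 and 980.4 in the TAZ4SA-labelled libraries and 1011, 873 and 1029 in YAP5SA, and its call in the YAP pair (-0.64) was lost without YAP-TFE3 replicate 3 (-0.43), YAP5SA replicate 1 (-0.61) or YAP5SA replicate 3 (-0.59). SLC7A5, an amino acid transporter, and PHGDH, of serine synthesis, had pooled differences of -1.35 and -1.31. NRF2 response genes had 10 higher and 5 lower of 21: NQO1 was higher (1.59), TXNRD1 lower (-1.09), and OSGIN1 averaged 117 ± 61.1 CPM in YAP-TFE3 against 13.3 ± 3.07 in TAZ-CAMTA1. Cholesterol and fatty acid synthesis had 3 higher and 16 lower of 28, with medians of -0.11 in the TAZ pair and -0.63 in the YAP pair. The log2 difference was larger in the TAZ pair in 13 members and in the YAP pair in 1. MVD (-0.89) and FDFT1 (-0.85) were lower and the elongase gene ELOVL6 higher (2.13). YAP-TFE3 replicate 3 stood apart in FDFT1 (238, 250 and 450 CPM in YAP-TFE3) and MVD (28.0, 32.1 and 51.9). Adipocyte genes had 7 higher and 6 lower of 18 tested, beside 31.0% of all genes each way. PPARG, the master regulator of adipogenesis (1.27), and LPL (1.71) were higher and CEBPA (-1.12) lower.

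Cytosolic ribosomal protein genes were the most uniform list. None of 77 was called higher and 75 were called lower. In both pairs 73 were lower, where 16.1% of all genes were. The medians were -0.78 and -0.73 in the pairs, and no member was called in the difference between the pairs. With total-count scaling the pooled median was -0.59. RPLP0 averaged 1586 ± 235 and 1224 ± 82.9 CPM in the fusions, 1995 ± 104 in the empty vector, and 3089 ± 296 and 2732 ± 389 in the full-length groups, and RPL12 and RPSA had pooled differences of -1.05 and -1.17. Ribosomal protein genes have many processed pseudogenes, so their counts are uncertain. Subunits of ATAC, a histone acetyltransferase complex, had 5 higher and 8 lower of 13: ZZZ3 (0.78) and KAT2B (1.09) were higher, and POLE4 (-0.67) and WDR5 (-0.51) lower. Neurofilament and neuronal genes had 3 higher and 8 lower of 13 tested, with STMN3 lower (-1.28) and NEFL higher in the pooled contrast (1.09, or 0.79 and not called without TAZ-CAMTA1 replicate 3) and in the YAP pair (1.90), but not called in the TAZ pair (0.28, or -0.33 without the same library). Endothelial genes had 7 higher and 5 lower of 16 tested, where 31.0% of all genes were called in each direction. KDR, the VEGF receptor 2 gene, was at 15.7 to 46.4 CPM in the fusions and 2.45 to 7.65 in the full-length libraries. The empty vector libraries held 38.7, 54.5 and 39.5 CPM of KDR, above the 15.7 to 20.6 of YAP-TFE3. TEK was higher (1.79), and ROBO4 (-3.07) and VWF (-1.53) were lower. All fusion libraries summed higher in the 5 endothelial markers than any full-length library. The empty vector summed to 74.7 to 98.6 CPM in these markers, against 67.2 to 75.6 in YAP-TFE3 and 113 to 144 in TAZ-CAMTA1. Against the full-length libraries the defining marker VWF went the other way, at 1.19 to 2.54 CPM in the fusions. The part of other cell types in these values was not tested.

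**Figure D4:**
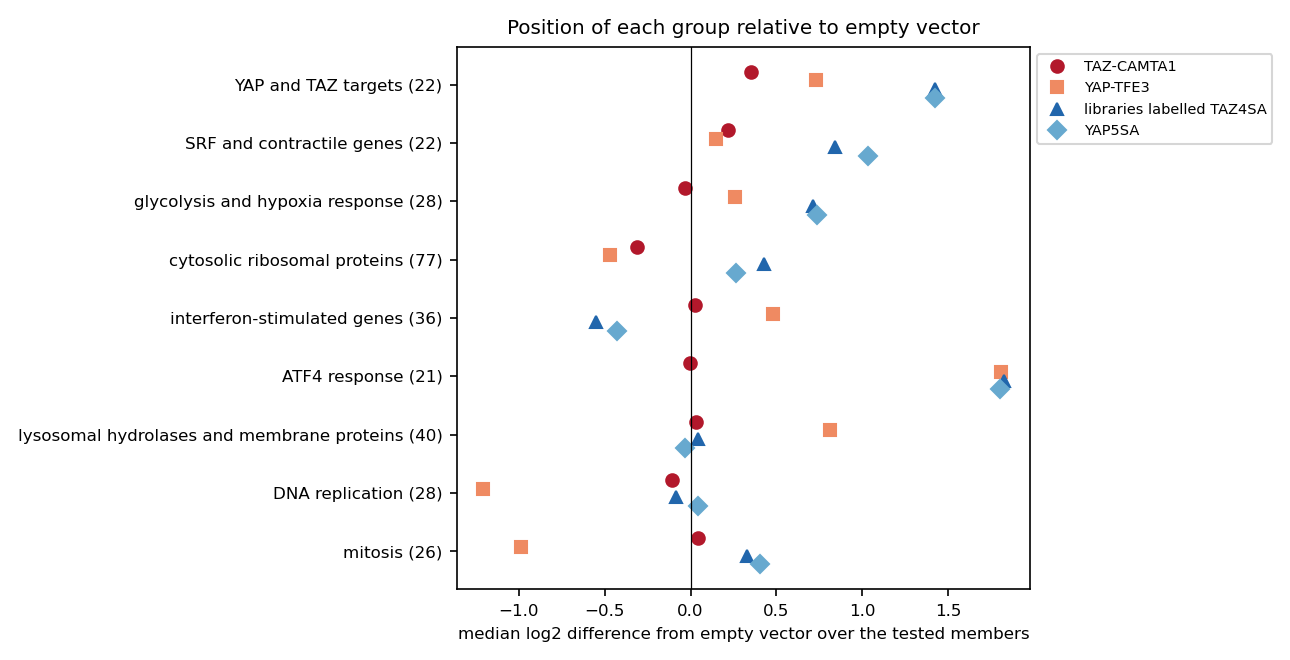
Median log2 difference from the empty vector of a selection of the gene lists (rows) in TAZ-CAMTA1, YAP-TFE3, TAZ4SA and YAP5SA, which share the control libraries. The lists drawn are YAP and TAZ targets, SRF and contractile genes, glycolysis and hypoxia, ribosomal proteins and interferon-stimulated genes. ATF4 response, lysosomal hydrolases and membrane proteins, DNA replication and mitosis are drawn as well. YAP and TAZ targets rank the full-length groups furthest right, and the ATF4 list shows TAZ-CAMTA1 alone near 0.

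The 870 genes called in opposite ways were 260 higher in the TAZ pair and lower in the YAP pair, and 610 the reverse. Of each kind the 4 with the largest difference between the pairs are described, so that difference is fixed by the choice. COL1A1 (chr17:50184101-50201632), the main fibrillar collagen chain, was at 44.8, 50.2 and 26.4 CPM in TAZ-CAMTA1 and 20.1, 17.7 and 7.94 in the TAZ4SA-labelled libraries, but at 9.41, 9.37 and 6.699 in YAP-TFE3 and 73.2, 86.3 and 27.3 in YAP5SA. Its log2 difference was 1.41 ± 0.34 (SE) in the TAZ pair and -2.87 ± 0.35 (SE) in the YAP pair. RIPOR2 (1.10 and -2.63), which overlaps several genes, FAM111B (1.97 and -1.74, the latter -3.29 without YAP-TFE3 replicate 3) and the natriuretic peptide clearance receptor gene NPR3 (2.03 and -0.73) had the same form. For NPR3 the full-length forms lay furthest apart, at 1.42, 2.41 and 1.86 CPM in the TAZ4SA-labelled libraries and 12.8, 10.3 and 11.5 in YAP5SA, with 7.55, 9.18 and 6.55 and 7.77, 7.36 and 5.73 in the fusions.

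In the reverse direction YAP-TFE3 stood alone at the top. LCP1 (chr13:46125920-46211871), an actin-bundling protein of leukocytes, was at 200.4, 211 and 179.8 CPM in YAP-TFE3, 1.01, 0.816 and 1.097 in TAZ-CAMTA1, 7.404, 7.76 and 11.2 in the TAZ4SA-labelled libraries and 2.48, 2.403 and 2.35 in YAP5SA (log2 -3.16 in the TAZ pair and 6.35 in the YAP pair). GDF15, a stress-induced cytokine, was at 67.5, 74.04 and 16.6 CPM in YAP-TFE3, 0.376, 0.272 and 0.701 in TAZ-CAMTA1, 5.78, 4.05 and 8.79 in the TAZ4SA-labelled libraries and 2.39, 2.02 and 4.15 in YAP5SA. PHF24 had differences of -2.78 and 3.95 in the TAZ and YAP pairs, and SLAMF7, a receptor of lymphoid cells, -1.51 and 4.11. In these 4 genes TAZ-CAMTA1 had the lowest mean of the 4 groups and YAP-TFE3 the highest. The haematopoietic markers summed to at most 1.86 CPM in YAP-TFE3. The plot of the 8 genes by library shows how the groups are ordered in each.

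**Figure D5:**
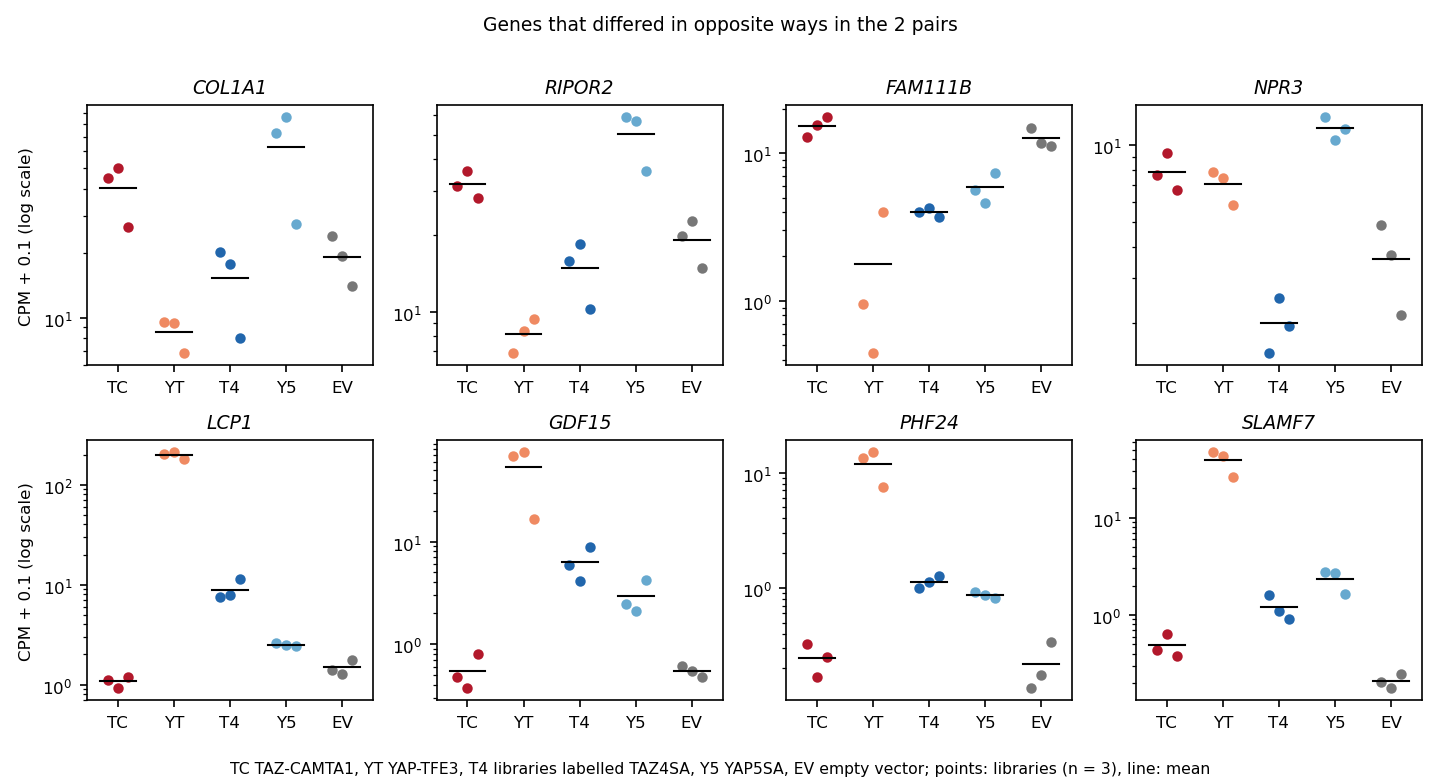
CPM plus 0.1 on a log axis in each library (points) with group means (bars) for 4 genes higher in the TAZ pair and lower in the YAP pair and 4 genes the reverse. LCP1, GDF15, PHF24 and SLAMF7 are highest in the 3 YAP-TFE3 libraries and, of the 4 groups with a construct, lowest in TAZ-CAMTA1.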

How the data were processed

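Poly(A) RNA of SW872 cells was sequenced after TruSeq stranded preparation as paired-end reads. Per the study's methods, reads were aligned by the authors with HISAT2 inside bcbio-nextgen against hg38 with Ensembl annotation. The deposited values are raw counts per gene in 1 table a library, and the counting tool and strand setting are not given in the sources used here. The authors' own tests ran DESeq2 on salmon estimates, which were not used here.

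From the deposited counts, edgeR 4.0.16 in R 4.3.3 fitted 1 mean per group to all 24 libraries, which share 1 estimate of the spread (TMM scaling, quasi-likelihood test, Benjamini-Hochberg adjustment over the 20103 genes averaging 5 or more counts across the 12 libraries, threshold 0.05). A log2 difference with its SE comes from this fit, and p-values measure the spread between libraries of separately transduced pools. The pooled contrast is the mean of both fusions minus the mean of both full-length forms, and the pairs and their difference come from the same fit. Named genes were the 4 construct genes, the 10 highest and 10 lowest shared genes, 4 opposite genes of each kind and up to 3 members a direction from each of 36 lists, less 2 that are not reported here. The members and lists were chosen with earlier results of these data known. Alternatives were DESeq2 1.42.0, other scalings and filters, the 12 libraries alone, a replicate block, thinned counts, left-out libraries and YAP5SA alone as the reference. The code was tested on simulated data. Gene positions come from GENCODE on GRCh38, and promoter windows from RefSeq.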

Additional observations from a re-analysis of the deposited data

Results flagged for a closer look

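Genes were marked for a closer look when the size of the fusion effect differed between the pairs by edgeR's test of that difference, which holds for 6023 of the genes tested and for 73 of the 138 named ones. Each value below is the log2 difference of TAZ-CAMTA1 minus the libraries labelled TAZ4SA, less that of YAP-TFE3 minus YAP5SA, so a positive value means the higher log2 difference in the TAZ pair, and all 73 passed an adjusted p of 0.05 in edgeR. Since 30.0% of all genes passed, such a difference is common, and the genes of opposite calls were chosen by its size.

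The construct genes gave CAMTA1 2.45, TFE3 -0.86, WWTR1 -0.45 and YAP1 1.45. Among shared genes the values were POSTN 1.94, SPP1 -1.02 and KCND3 -2.63, and NPPB 4.97 rests on 2 counts in YAP-TFE3. Genes of opposite calls gave COL1A1 4.28, RIPOR2 3.73, FAM111B 3.71 and NPR3 2.76 in one direction and LCP1 -9.51, GDF15 -7.94, PHF24 -6.72 and SLAMF7 -5.62 in the other.

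YAP and TAZ targets and Hippo genes gave ANKRD1 -3.29, CCN1 -0.43, CCN2 -0.91, AMOTL2 -0.49, NF2 -1.02 and WWC1 0.72, so that 5 of these 6 were less reduced in the YAP pair. The named AP-1 genes had the higher log2 difference in the YAP pair (FOSL1 -2.42, ATF3 -3.10, FOS -2.20 and FOSB -1.18). Contractile genes were split (TAGLN 0.96, MYH9 -0.55 and LMOD1 -2.28).

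Matrix genes lay on both sides, with MFAP5 6.59, MMP24 2.38, ITGB2 1.36, LTBP1 0.85 and COL8A1 0.69 positive and LAMA1 -4.71, MMP1 -4.02, ITGB3 -2.77, COL15A1 -1.50 and CCN3 -0.77 negative. The named TGF-beta genes gave TGFB3 1.79, BMP4 1.19 and TGFBR3 0.95, while over the whole list 5 members had the larger value in the TAZ pair and 4 in the YAP pair.

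The named lysosomal and MiT/TFE genes were negative (RRAGD -4.85, GPNMB -2.46, ASAH1 -1.70, ATP6V1C1 -1.16, SGSH -0.79 and IDS -0.44), and the named replication and mitosis genes positive (RRM2 2.61, CDC45 1.25, UBE2C 0.74, AURKB 1.00, CDC20 0.93 and CDT1 0.92). Over the lists, 1 lysosomal member was called positive and 31 negative, 1 and 14 of the MiT/TFE list, 25 and 0 of the replication list and 21 and 0 of the mitosis list. Cyclin and cell death genes gave CCNE2 1.02, CCND2 -3.10, CDKN1A -0.70 and HRK -2.34. Named interferon and cytokine genes gave IL24 -3.95, CCL5 -2.45, OASL -1.58 and IFIT2 -1.15, while of the interferon-stimulated list 3 members were called positive and 15 negative and of the inflammatory list 0 and 10. Those of the stress and hypoxia lists gave OSGIN1 -3.39, ASNS -1.88, SLC7A5 -1.17, NDRG1 -1.16, TXNRD1 -1.03 and PHGDH -0.77. The remaining genes gave WDR5 0.39, KAT2B 0.84, STMN3 0.53, TEK 1.09 and ROBO4 -1.75.

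Calls in this difference lost when a single library was left out were those of CCN1 (6 libraries, -0.37 to -0.43), COL8A1 (7, 0.53 to 0.68), CDT1 (5, 0.67 to 0.87), IDS (5, -0.34 to -0.40), FOSB (5, -0.80 to -1.17), NDRG1 (5, -0.84 to -1.10), CCNE2 (4, 0.82 to 0.88), KCND3 (3, -1.99 to -2.44), SPP1 (2, -0.79 and -0.89), CCN3 (1, -0.60) and CDKN1A (1, -0.54).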

How the results depend on the processing

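Testing against an absolute log2 difference of 1 gave 1653 genes for the fusions against the full-length forms, 1643 for the TAZ pair, 1900 for the YAP pair, 701 called the same way in both pairs, 34 called opposite ways and 913 for the difference between the pairs, a stricter question by its construction. Under every other setting run, the 6 counts of the report stayed within 1.5 times of their values, among them DESeq2 with 12244 genes in the pooled contrast, the 12 libraries alone with 11746, and the replicate block with 12487, which gave 906 genes of opposite calls. The deviations of same-numbered libraries correlated at -0.128 to 0.372 (median 0.0381, 6 of 18 over 0.1). Replicate 3 deviated together in 3 groups, at 0.372 between the TAZ4SA-labelled libraries and YAP5SA, 0.235 between TAZ-CAMTA1 and YAP5SA and 0.206 between TAZ-CAMTA1 and the TAZ4SA-labelled libraries. No 2 groups were over 0.1 in all 3 numbers, so the numbers were not taken as pairs. Leaving out 1 library at a time gave 11793 to 12649 genes in the pooled contrast, 9509 to 11348 in the TAZ pair, 9312 to 10864 in the YAP pair, 5454 to 6233 the same way, 702 to 1130 opposite ways and 5112 to 6721 for the difference.

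Total-count scaling turned the TAZ-pair medians of the Hippo list (0.13), the TGF-beta list (0.15) and the MiT/TFE list (0.13) positive. The pooled median of the inflammatory list turned to 0.38 with a mean of at least 20 counts and to 0.22 against YAP5SA alone, where NPR3 turned to -0.65. Without YAP-TFE3 replicate 3, FAM111B turned to -0.66 in the pooled contrast (0.38 without replicate 2) and the difference between the pairs of OAS3 to 0.31 (-0.31 without replicate 1). The cause was not tested. Of the other values of named genes under the alternatives, 10889 kept direction and side of the threshold, 112 lost a call, 72 gained one and 90 uncalled ones moved. Genes of a few counts, such as NPPB in YAP-TFE3, are limited by depth.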
